A study of Homo sapiens with 38 samples.

Results

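The experiment asked, for each nuclear RNA of HCT116 cells, whether losing AGO1 and AGO2 together changed its level by more or by less than the sum of losing each alone. The 12 libraries used, of 38 samples in the series, were 3 nuclear libraries each of wild-type HCT116 cells, of an AGO1 knockout line, of an AGO2 knockout line and of an AGO1/2 double knockout line. HCT116 is a human colorectal carcinoma line. The knockout lines were made from it by CRISPR editing, each genotype was 1 line, and all grew without any treatment in McCoy's 5A medium with fetal bovine serum. Replicates were cultures at successive passages: 27, 28 and 29 for wild type, 6, 7 and 8 for AGO1, 8, 9 and 10 for AGO2 and 9, 10 and 11 for AGO1/2. Passage, line and genotype therefore cannot be told apart, and the p-values measure the spread between cultures of 1 line.

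Argonaute proteins carry microRNAs (miRNAs) to partly complementary sites in other RNAs, mostly in the 3' untranslated regions (UTRs) of mRNAs, where GW182 (TNRC6) proteins and the CCR4-NOT deadenylase complex then shorten the poly(A) tail and repress the transcript. Pairing is led by the seed, the bases near the 5' end of the miRNA. AGO1 to AGO4 bind largely the same miRNAs, and AGO2 also cleaves fully paired targets. When a family member can do the work of another, losing 1 gene changes little and losing both changes much, which is the pattern called redundancy.

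The miRNA families whose target lists are described later are shown here because their seeds define the sites counted in 3' UTRs. The mature sequences come from RefSeq (GRCh38.p14) and run 5' to 3', with the seed, bases 2 to 8, in capitals.
hsa-let-7a-5p: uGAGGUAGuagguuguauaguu
hsa-miR-17-5p: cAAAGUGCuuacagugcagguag
hsa-miR-21-5p: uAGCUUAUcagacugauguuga
hsa-miR-200b-3p: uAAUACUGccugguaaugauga
hsa-miR-200a-3p: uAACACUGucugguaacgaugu
An 8mer site, the complement of the seed followed by an A, is shown in capitals for target genes whose values are given below, in 3' UTRs of GENCODE release 44 (hg38), written on the strand of the gene.
TGFBR1 let-7 site, chr9:99149369-99149398, plus strand: ggtcaattgttCTACCTCActgagagggaa
ZEB1 miR-200b site, chr10:31527622-31527651, plus strand: ttttatcttatCAGTATTAtcactcttatg
ZEB1 miR-200a site, chr10:31528786-31528815, plus strand: atttgatttaaCAGTGTTAtgttaacattt
SEC23A miR-200b site, chr14:39032274-39032303, minus strand: tcttattgaaaCAGTATTAtataatgtttg
SMAD7 miR-21 site, chr18:48920232-48920261, minus strand: tagactttaacATAAGCTAtttttctaact
These matches describe the sequence and do not show that the sites were bound.

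The 12 libraries held 20431557 to 54097984 estimated reads, fewest in wild type and most in AGO1/2. Wild-type passage 29 stood furthest from its group (correlation of log2 levels 0.977 to 0.979 with the other wild-type passages, against 0.988 to 0.993 in the other pairs). Levels are given as CPM (read counts relative to library size) with library sizes scaled by TMM, the trimmed mean of M-values. AGO1 RNA was 160, 158 and 134 CPM in wild type, 64.9, 61.2 and 62.4 in AGO1, 173, 164 and 165 in AGO2, and 39.2, 38.4 and 42.7 in AGO1/2 cells. Both groups edited at AGO1 lay below all others, and AGO1/2 lay below AGO1 (interaction -0.80 ± 0.10 on the log2 scale, edgeR adjusted p = 7.8e-05). On the deposited TPM (transcript abundance corrected for length and relative to the library's sum), which are not scaled by TMM, the interaction was -0.36 and not called. AGO2 RNA remained in both lines edited at AGO2, at 345 to 381 CPM in AGO2 and 394 to 490 CPM in AGO1/2 against 466 to 547 CPM in wild type, so its RNA level does not check those labels. RNA levels do not measure the protein.

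The interaction value is the log2 change in AGO1/2 minus the sum of the log2 changes in AGO1 and in AGO2, each against wild type: 0 means additive, and the sign gives the side of the sum on which AGO1/2 lay. Of 18532 genes tested, 6944 (37.5%) had an interaction at an adjusted p of at most 0.05 in edgeR's quasi-likelihood test. It was above 0 for 3813 (20.6%) and below 0 for 3131 (16.9%), and at least 1 in size for 2262 (12.2%). The median size among called genes was 0.72, and the median standard error (SE) over all genes tested was 0.18. Among genes with a called interaction, AGO1/2 was beyond both single knockouts in the same direction for 5108 (27.6% of all genes tested), of which 2854 were higher and 2254 lower. The comparisons with the single knockouts do not use the wild-type libraries, but the interaction call that selected these genes does. Against wild type, 5191 genes differed in AGO1 (28%), 7155 in AGO2 (38.6%) and 12454 in AGO1/2 (67.2%). Of these 12454 genes, 7066 had no called interaction, which leaves additivity neither shown nor refuted for them. The split above and below 0 rests on the scaling: with deposited TPM as they stand, the median of all genes shifted to 0.29 and 6670 genes lay above 0 against 622 below, while TPM rescaled by TMM gave 3178 and 2455. Below, directions are relative to the TMM scale.

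**Figure D1:**
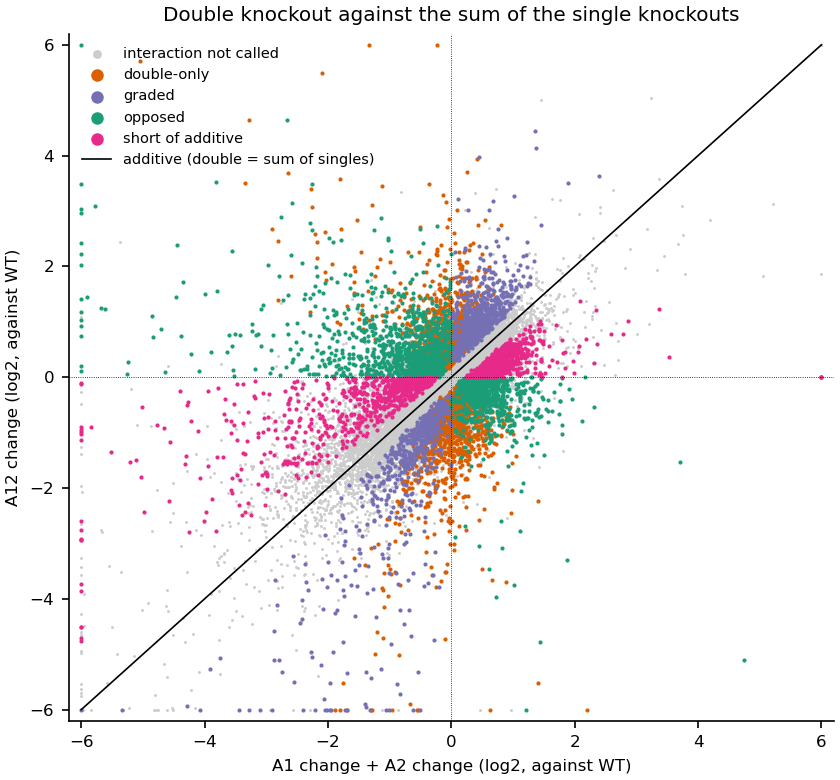
Each point is a gene; the x axis is the sum of its log2 changes in AGO1 (A1) and AGO2 (A2) and the y axis its log2 change in AGO1/2 (A12), all against wild type (WT), with values beyond 6 drawn at the edge. The line marks additivity, and the colours mark the 4 kinds of called gene described in the text: 2328 double-only, 1340 graded, 1930 opposed and 1346 short of additive.

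Double-only genes, the pattern that redundancy would give, differed from wild type in AGO1/2 and in neither single knockout, with a called interaction. There were 2328 (12.6% of genes tested), 1210 higher and 1118 lower in AGO1/2. Of these, 2210 lay outside chromosome 8. AGO1/2 was 1 line, so whatever sets that line apart from the other 3 groups also gives this pattern, and its part cannot be told apart here. A single knockout without a call is not shown to be unchanged, but for 1487 of them both single changes had 95% intervals within 0.5 of 0 on the log2 scale. The gene with the lowest p among those higher was ATL3 (chr11:63624087-63671921, hg38, minus strand), which encodes atlastin-3, a GTPase that shapes the endoplasmic reticulum. It was at 75.3, 78.7 and 80.8 CPM in wild type, 82.9, 85.7 and 80.7 in AGO1, 77.8, 78.6 and 83.6 in AGO2, and 315, 319 and 332 in AGO1/2. The first 3 groups overlapped and every AGO1/2 library stood above them (4.12-fold over wild type, interaction 1.92 ± 0.08, adjusted p = 6.1e-09). ECM1, a secreted matrix protein, was at 1.57 to 2.21 CPM in the 9 other libraries and at 21.2 to 23.4 CPM in AGO1/2 (interaction 3.85 ± 0.18). UBASH3B, a tyrosine phosphatase, was at 44.5 to 54.9 CPM in those libraries and at 163 to 216 CPM in AGO1/2 (2.04 ± 0.12). UGCG, the glucosylceramide synthase, and SGCB, a sarcoglycan subunit, had the same pattern with interactions of 1.5 ± 0.09 and 1.41 ± 0.10.

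Among double-only genes lower in AGO1/2, the DNA helicase gene RECQL (chr12:21468910-21501669, minus strand) was at 50.0, 52.6 and 44 CPM in wild type, 51.5, 49.8 and 44 in AGO1, 49.8, 49.4 and 45.9 in AGO2, and 8.27, 8.32 and 8.72 in AGO1/2. The 3 other groups covered the same range, and AGO1/2 lay below it (interaction -2.50 ± 0.11, adjusted p = 1.6e-08). FAM83B, which encodes a casein kinase anchor, was at 32.6 to 39.0 CPM outside AGO1/2 and at 9.31 to 10.1 CPM in it (-1.81 ± 0.09). LRIG3, a membrane protein with leucine-rich repeats, was at 19.3 to 25 CPM outside and at 4.29 to 5.24 CPM in AGO1/2 (-2.42 ± 0.13). CADPS2, a factor for the release of dense-core vesicles, was at 13.1 to 22.1 CPM outside and at 0.627 to 0.833 CPM in AGO1/2 (-4.62 ± 0.20). ANK3, which encodes the membrane adaptor ankyrin-G, was nearly absent from AGO1/2, where 1 read was assigned over the 3 libraries, against 28.0 to 43.8 CPM in the other 9; no fold is given for it.

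Graded genes, 1340 of them (7.23%), changed in the direction of the summed single changes but further. They were 759 higher and 581 lower in AGO1/2, and for 842 of them AGO2 was the only single knockout with a call, against 137 for AGO1. Over all genes tested AGO2 also had more calls, 38.6% against 28% in AGO1. ZNF385A (chr12:54369133-54391298, minus strand), a zinc finger protein that binds RNA, was at 22.7, 22.9 and 21.2 CPM in wild type, 16.7, 16.9 and 16.9 in AGO1, 42.2, 41.8 and 41.7 in AGO2, and 97.8, 97.8 and 95.5 in AGO1/2. No groups overlapped: AGO1 was lowest, AGO2 above wild type and AGO1/2 highest (interaction 1.61 ± 0.07, adjusted p = 1.6e-08). ANO1, a calcium-activated chloride channel, was at 51.0 to 80.2 CPM in the other libraries and at 294 to 327 CPM in AGO1/2 (2.21 ± 0.09). STMN3, a regulator of microtubules, was at 41.8 to 68.5 CPM in those libraries and at 160 to 168 CPM in AGO1/2 (1.53 ± 0.07). Of the lower genes, the transcription factor gene MEF2C was at 30.3, 27.1 and 26.7 CPM in wild type, 25.5, 25.6 and 27.7 in AGO1, 16.9, 16.9 and 19.1 in AGO2, and 1.41, 1.18 and 1.23 in AGO1/2. AGO1 overlapped wild type, AGO2 lay below both and AGO1/2 far below (interaction -3.69 ± 0.13). ZNF704, a zinc finger gene, and MAL2, a membrane protein of apical transport, both on chromosome 8, were at 0.354 to 0.868 CPM in AGO1/2 and 28.8 to 127 CPM elsewhere, with interactions of -6.29 ± 0.16 and -6.01 ± 0.21.

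In opposed genes, 1930 (10.4%), AGO1/2 lay on the other side of wild type from the summed single changes, 1144 of them higher and 786 lower. For 972 the change in AGO1/2 against wild type was itself called. AGO1 was the only single knockout with a call for 674 of the 1930 and AGO2 for 453, the reverse of the order in graded genes. PXDN (chr2:1631887-1744852, minus strand), the matrix enzyme peroxidasin, was at 43.4, 42.1 and 45.5 CPM in wild type, 24.7, 29.1 and 31.3 in AGO1, 5.59, 6.17 and 5.55 in AGO2, and 46.1, 45.7 and 51.5 in AGO1/2. Both single lines were low and AGO1/2 was back at or above wild type, with no call between those 2 groups (interaction 3.67 ± 0.13, adjusted p = 2.3e-09). PRPS1, an enzyme of nucleotide synthesis, was at 2.80 to 3.54 CPM in AGO1 against 29.6 to 33.6 in wild type, 47.8 to 50.9 in AGO2 and 72.7 to 93.9 in AGO1/2 (4.12 ± 0.15). The kinase gene DCLK1 was at 1.33 to 1.95 CPM in wild type, had 2 reads in all in AGO2, and was at 100 to 158 CPM in AGO1/2, so that its fitted interaction depends on the handling of zeros and is not given. In the other direction, LMAN1 (chr18:59327823-59359265, minus strand), a cargo receptor between endoplasmic reticulum and Golgi, was at 138, 143 and 141 CPM in wild type, 128, 122 and 129 in AGO1, 193, 180 and 178 in AGO2, and 22.6, 20.6 and 22.8 in AGO1/2. AGO2 was above wild type while AGO1/2 was below every other library (interaction -2.90 ± 0.08, adjusted p = 4.9e-10). DPYSL3, a cytoskeletal regulator, was at 66.5 to 69.3 CPM in AGO1, 37.6 to 48.5 CPM in wild type and AGO2, and 2.64 to 3.30 CPM in AGO1/2 (-4.77 ± 0.11), and PLCL2, a relative of phospholipase C, was at 9.57 to 14.5 CPM outside AGO1/2 and 0.570 to 0.796 CPM in it (-4.70 ± 0.15).

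Genes short of additive numbered 1346 (7.26%), 643 with a fitted AGO1/2 level above and 703 below wild type; for 598 of them this change was not itself called. Wild type enters the interaction once with a plus sign, so whatever sets the wild-type libraries apart from all 3 knockout lines alike gives this pattern, and its part cannot be told apart here; in 610 of the 1346 (45.3%) all 3 knockout lines differed from wild type in the same direction. PALLD (chr4:168497052-168928457, plus strand), an actin scaffold, was of that kind: it was at 325, 319 and 258 CPM in wild type, 642, 641 and 593 in AGO1, 627, 679 and 669 in AGO2, and 484, 486 and 497 in AGO1/2. All knockout libraries were above wild type, and AGO1/2 was the lowest of them (interaction -1.49 ± 0.12, adjusted p = 1.5e-06). TFR2, a transferrin receptor, and FNTB, a farnesyltransferase subunit, had interactions of -1.37 ± 0.15 and -1.07 ± 0.11. The other side included genes whose loss in a single knockout was absent from the double. CEP112 (chr17:65635537-66192133, minus strand), a centrosomal protein, was at 30.2, 31.7 and 33.5 CPM in wild type, 18.3, 19.6 and 19.5 in AGO1, 19.4, 20.6 and 19.1 in AGO2, and 30.2, 31.1 and 28.0 in AGO1/2. Both single lines lay below, while AGO1/2 overlapped wild type (interaction 1.33 ± 0.10, adjusted p = 8.3e-07). RUNX2, a transcription factor, was at 12.1 to 14.2 CPM in wild type, 4.10 to 4.76 in AGO1, 1.97 to 2.37 in AGO2 and 6.17 to 9.08 in AGO1/2 (3.43 ± 0.20). SCML1 was low in AGO1 alone, at 3.64 to 4.07 CPM against 10.3 to 11.9 CPM in all other libraries (1.57 ± 0.11). PRKAA2, the catalytic α2 subunit of AMP-activated kinase, had no read in any AGO1 library and reads in only 1 AGO2 library, at 0.464 CPM, but was at 11.9 to 13.0 CPM in AGO1/2 and 12.1 to 16.1 CPM in wild type; no fold is given for it.

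**Figure D2:**
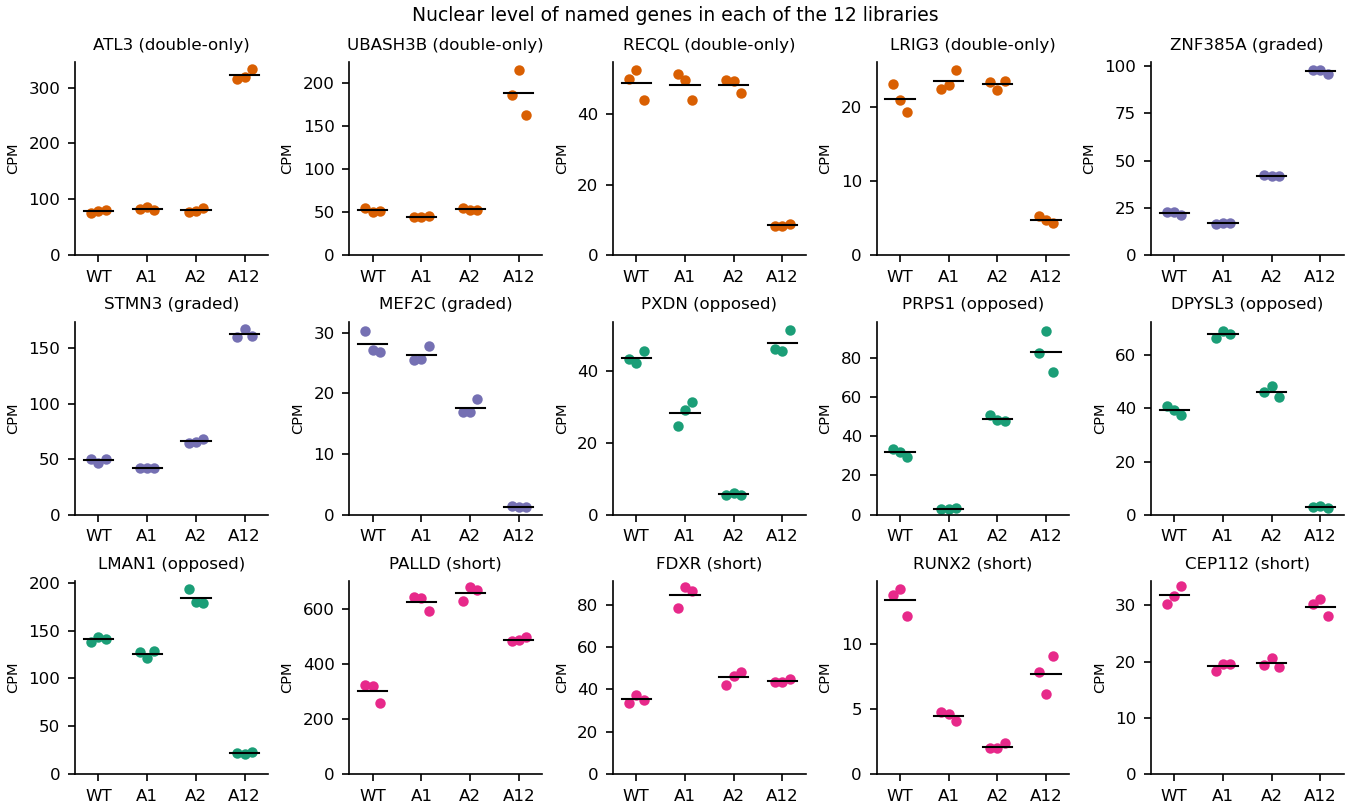
Each panel gives the level of a gene in CPM (y axis, from 0) in the 3 libraries of wild type (WT), AGO1 (A1), AGO2 (A2) and AGO1/2 (A12), with bars at the group means. In the double-only genes ATL3, UBASH3B, RECQL and LRIG3 the 3 left groups overlap and A12 stands apart, as with ATL3 at 315 to 332 CPM against 75.3 to 85.7 CPM elsewhere.

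Targets of 4 miRNA families were taken from lists of well-known target genes. Over all protein-coding genes tested, 26.4% had an interaction above 0 and 16.7% below, with a median of 0.08. Of 23 tested let-7 targets, 11 lay above and 2 below (median 0.25); of 17 miR-200 targets, 10 and 1 (0.54); of 20 miR-21 targets, 8 and 3 (0.21); and of 21 targets of the miR-17 family, 8 and 0 (0.30). These medians kept their sign in every alternative run. The median change in AGO1/2 against wild type was 0.39 for let-7, 0.34 for miR-200, 0.15 for miR-21 and 0.31 for miR-17 targets. Over protein-coding genes it was 0.15. Of the 20 miR-21 targets, 8 were higher and 6 lower in AGO1/2 than in wild type, and 8 were opposed. The lists were not matched for 3' UTR length. In the tercile of genes with the longest 3' UTRs, 34.7% lay above 0, with a median of 0.17. TGFBR1, a receptor kinase of TGF-beta signalling that carries the let-7 site printed above, was at 36.7, 39.0 and 42.2 CPM in wild type, 32.5, 31.7 and 32.1 in AGO1, 39.6, 42.0 and 41.9 in AGO2, and 73.2, 74.7 and 71.3 in AGO1/2. AGO2 overlapped wild type, AGO1 was below it, and AGO1/2 was above all others (interaction 1.12 ± 0.08, adjusted p = 1.3e-06). ZEB1, a repressor of epithelial genes with the miR-200 sites shown, was at 12.4, 12.5 and 8.88 CPM in wild type, 15.6, 13.8 and 14.6 in AGO1, 9.48, 8.70 and 7.39 in AGO2, and 34.2, 36.1 and 33.8 in AGO1/2. AGO1 was higher and AGO2 overlapped the lowest wild-type library, with AGO1/2 above them all (1.65 ± 0.17, adjusted p = 1.6e-05). SEC23A, a vesicle coat subunit of the miR-200 list, rose from 103 to 112 CPM in wild type to 241 to 244 CPM in AGO1/2, with 113 to 127 CPM in the single lines (0.87 ± 0.08).

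SMAD7, the inhibitor of TGF-beta receptors in both the miR-21 and miR-17 lists, was at 7.10, 5.82 and 6.76 CPM in wild type, 2.05, 1.80 and 2.42 in AGO1, 3.22, 2.90 and 3.68 in AGO2, and 11.8, 13.5 and 13.1 in AGO1/2. Each single knockout was below wild type and the double above it (interaction 3.62 ± 0.19, adjusted p = 5.6e-08). MARCKS, a membrane and actin linker of the miR-21 list, was at 23.1 to 25.1 CPM in AGO1, 58.3 to 69.4 in wild type, 79.0 to 85.4 in AGO2 and 148 to 172 in AGO1/2 (2.31 ± 0.11). The gene for cyclin D1, CCND1, was at 427 to 498 CPM in wild type and AGO1, 651 to 750 in AGO2 and 1569 to 2077 in AGO1/2 (1.43 ± 0.14). MYC went against its let-7 list, with 302 to 333 CPM in wild type, 401 to 456 in both single lines and 187 to 210 in AGO1/2 (-1.60 ± 0.10); it lies on chromosome 8.

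Across all protein-coding genes with a 3' UTR, the share with an interaction above 0 was 17.6% in the tercile with the shortest 3' UTRs, 27.1% in the middle tercile and 34.7% in the tercile with the longest, from 2103 bases up. The medians were -0.04, 0.09 and 0.17, and their order held in every alternative, although the shortest tercile turned positive on unscaled TPM (0.30). The changes against wild type ran the other way in all 3 knockout lines: the medians of the longest tercile were -0.08 in AGO1, -0.04 in AGO2 and 0.07 in AGO1/2, and those of the shortest tercile 0.08, 0.13 and 0.20. Seed matches were compared within the longest tercile, since long UTRs hold more of any sequence. Length still ran from 2103 to 32870 bases within that tercile and was not matched between genes with and without a site. An 8mer site for let-7 was in 4.34% of all these 3' UTRs, for miR-17 in 5.41%, for miR-21 in 2.72%, for miR-200b in 5.12% and for miR-200a in 5.39%. In the longest tercile, genes with a miR-200a site had an interaction above 0 in 40.6% against 33.9% without it, for miR-17 in 39.9% against 34.1%, and for miR-21 in 39.8% against 34.4%. For let-7 the shares were 34.0% and 34.8%. Over the 12 families counted, the share was higher with an 8mer site in 9, and the lowest share was 30.8% with a miR-27 site. These shares do not show higher levels in AGO1/2. The median change in AGO1/2 against wild type was 0.025 with a miR-200a site and 0.079 without. It was 0.023 and 0.074 for miR-21, -0.018 and 0.080 for let-7, and 0.076 and 0.072 for miR-17.

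In the silencing machinery, 10 of 21 tested members of the RNA interference core lay above 0 and 4 below (median 0.17, but -0.0008 on TPM rescaled by TMM). AGO4 was at 15.4, 16.9 and 19.2 CPM in wild type, 11.1, 11.9 and 14.0 in AGO1, 10.6, 12.4 and 14.8 in AGO2, and 20.9, 19.6 and 25.1 in AGO1/2. All AGO1/2 libraries stood above every other library, by a narrow margin over wild type (interaction 1.27 ± 0.20, adjusted p = 0.0003). AGO3 was at 164 to 192 CPM in wild type and 137 to 162 CPM in the knockout lines (0.27 ± 0.09, adjusted p = 0.032), a call lost in 13 of 22 alternatives. The interaction of AGO2, 0.45 ± 0.12, was -0.0008 on TPM rescaled by TMM. PPP6C, the phosphatase that acts on Argonaute, was double-only, at 42.2 to 49.0 CPM outside AGO1/2 and 72.4 to 86.3 CPM in it (0.66 ± 0.09). Its partner ANKRD52 and the GW182 gene TNRC6C, chosen after their values were seen, had interactions of 0.91 ± 0.20 and 0.55 ± 0.08.

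Of 22 miRNA processing genes 3 lay above 0 and 4 below, a share near that of all genes (median -0.05, 0.35 on unscaled TPM). XPO5, the exporter of miRNA precursors, was at 155 to 193 CPM in wild type, 225 to 235 in AGO1, 194 to 206 in AGO2 and 166 to 196 in AGO1/2 (-0.48 ± 0.12), and TARBP2, the partner of Dicer, had -0.52 ± 0.12; neither call held on unscaled TPM. Among 30 deadenylation and decapping genes 8 lay above (26.7%) and 5 below (16.7%), near the 26.4% and 16.7% of protein-coding genes (median -0.05, 0.35 on unscaled TPM). DCP2, the decapping enzyme, was at 148 to 165 CPM in wild type, 120 to 124 in AGO1, 149 to 151 in AGO2 and 206 to 236 in AGO1/2 (0.89 ± 0.09), while its cofactor gene DCP1B was high in AGO1 alone, at 27.4 to 32.6 CPM against 16.1 to 19.4 CPM (-0.59 ± 0.10), a call lost on unscaled TPM (-0.16). Of 16 miRNA host transcripts, 4 lay above and 6 below (median -0.20, 0.24 on unscaled TPM). MIR17HG, the host of the miR-17-92 cluster, was at 28.9 to 39.7 CPM in wild type, 41.2 to 50.3 in the single lines and 14.5 to 16.9 in AGO1/2 (-1.80 ± 0.15). MIR34AHG, the host of miR-34a, was at 23.1 to 24.6 CPM in AGO1, 11 to 16.4 in wild type and AGO2 and 7.79 to 9.70 in AGO1/2 (-1.66 ± 0.17).

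Targets of p53, the transcription factor that answers DNA damage, mostly lay below additivity. Of 25 tested, 13 lay below and 2 above, with a median of -0.51 (range over the alternatives -0.69 to -0.02, nearest 0 on unscaled TPM). In AGO1, 13 of the 25 were higher than wild type and none lower (12.6% of all genes were higher in AGO1), and in AGO1/2, 10 of them were lower and 5 higher than in AGO1 (30.6% and 29.9% of all genes were). Against wild type, 11 were higher and 3 lower in AGO1/2. Of the 15 called, 8 were short of additive, the kind that a wild-type offset also gives, and 4 were opposed. DDB2, a DNA damage sensor, was at 39.2, 39.1 and 44.2 CPM in wild type, 85.8, 89.5 and 86.1 in AGO1, 44.6, 49.8 and 48.6 in AGO2, and 33.9, 34.9 and 34.5 in AGO1/2. AGO1 was far above the rest and AGO1/2 below every other library (interaction -1.56 ± 0.09, adjusted p = 1.4e-07). FDXR, a mitochondrial reductase, was at 33.8, 37.2 and 35.0 CPM in wild type, 78.5, 88.3 and 86.4 in AGO1, 42.3, 46.3 and 48.4 in AGO2, and 43.6, 43.4 and 44.7 in AGO1/2. Here AGO1/2 fell inside the range of AGO2 (-1.31 ± 0.10, adjusted p = 9.2e-07). MDM2, the ubiquitin ligase of p53, chosen after its values were seen, was at 474 to 514 CPM in AGO1 and 292 to 347 in AGO1/2, against 238 to 252 in wild type (-0.81 ± 0.10). CDKN1A, the cell cycle inhibitor p21, had no called interaction (0.16, adjusted p = 0.71).

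The TGF-beta pathway went the other way. Of 24 tested members 16 lay above 0 and 3 below, with a median of 0.47 that kept its sign in every alternative, and 12 of the 24 were of the opposed kind. In AGO1, 13 members were lower than wild type and none higher (15.4% of all genes were lower), and in AGO1/2, 17 were higher than in AGO1 (29.9% of all genes were). The receptor BMPR2 was at 41.3, 41.4 and 40.7 CPM in wild type, 28.4, 29.2 and 31.5 in AGO1, 32.9, 35.4 and 34.6 in AGO2, and 71.2, 71.6 and 75 in AGO1/2. Both single lines lay below wild type and the double above it (interaction 1.55 ± 0.08, adjusted p = 5.6e-08). SMAD7, the inhibitor in this pathway, had the same order. TGFB2, a ligand chosen with LTBP1 after their values were seen, was at 0.870 to 2.22 CPM outside AGO1/2 and 13.7 to 16.9 in it (4.02 ± 0.27). LTBP1, which holds the latent ligand in the matrix, was at 13.9 to 25.9 CPM outside and 2.55 to 2.70 CPM in AGO1/2 (-2.05 ± 0.17).

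**Figure D3:**
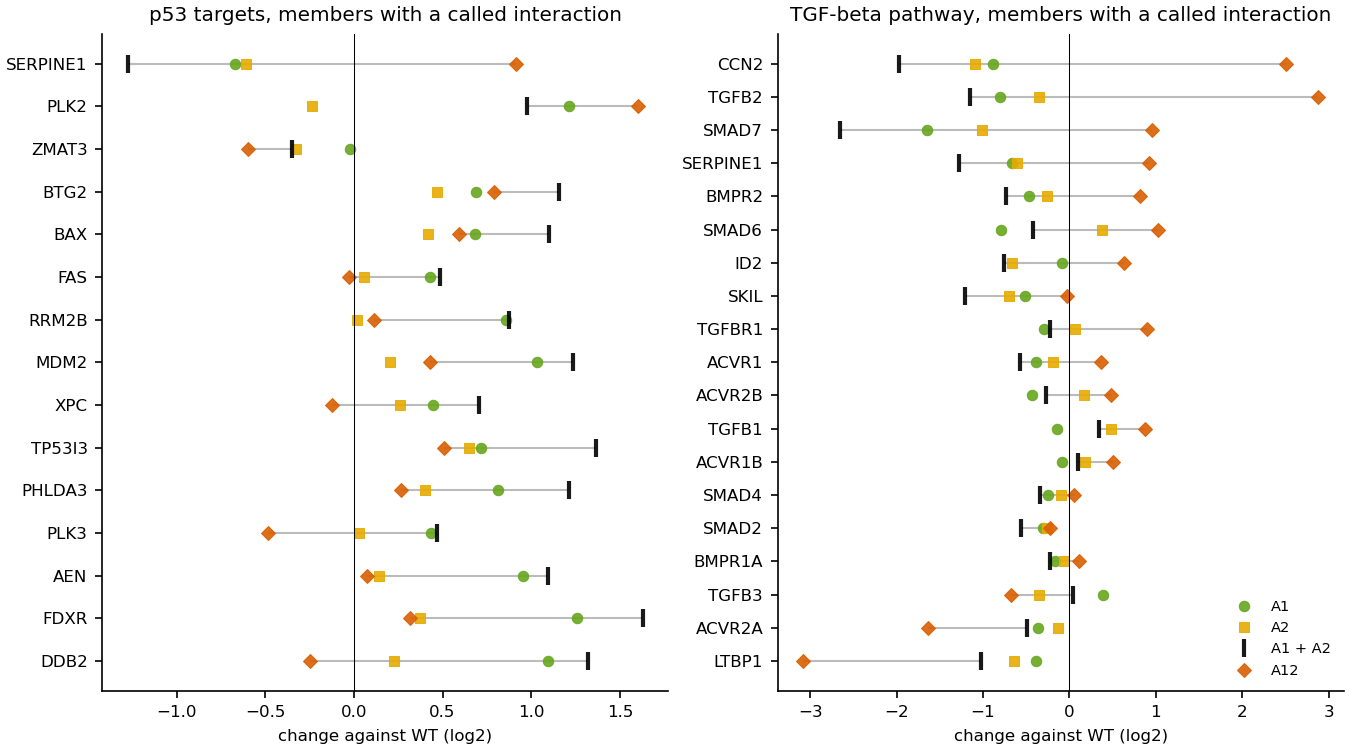
For the members with a called interaction in the p53 list (left, 15 genes) and the TGF-beta list (right, 19 genes), the x axis is the log2 change against wild type in AGO1 (A1), AGO2 (A2) and AGO1/2 (A12), and a black bar marks the sum of the single changes. On the left A12 lies to the left of the bar for 13 genes, and on the right it lies to the right of the bar for 16.

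Of 17 tested Wnt target genes, 12 lay above 0 and 1, MYC, below (median 0.84, positive in every alternative), and 8 were opposed. BMP4, a secreted growth factor, was at 174, 175 and 112 CPM in wild type, 85.9, 91.0 and 86.5 in AGO1, 46.1, 46.1 and 50.1 in AGO2, and 148, 140 and 154 in AGO1/2. Both single lines were low, and AGO1/2 lay within the range of wild type (interaction 2.44 ± 0.19, adjusted p = 1.4e-06). Genes of the epithelial and mesenchymal states divided, 8 above and 7 below of 24 (median -0.02, 0.32 on unscaled TPM and 0.01 on TPM rescaled by TMM). VIM, the mesenchymal filament vimentin, was at 2.31, 3.29 and 2.48 CPM in wild type, 4.96, 4.70 and 4.83 in AGO1, 2.34, 1.65 and 2.13 in AGO2, and 40.2, 45.4 and 40.6 in AGO1/2. AGO1/2 stood far above all others (3.51 ± 0.20, adjusted p = 1.1e-07). EPCAM, an epithelial adhesion protein, was at 148 to 149 CPM in wild type, 144 to 146 in AGO1, 234 to 243 in AGO2 and 99.9 to 101 in AGO1/2 (-1.20 ± 0.06).

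Colon epithelial markers were present in all groups. Of 10, 7 passed the filter on low counts, and their summed level was 2025 to 2895 CPM in the other libraries and 4866 to 5009 CPM in AGO1/2. The members divided: against wild type 4 were higher and 2, EPCAM and CDH1, lower in AGO1/2, and 2 had an interaction above 0 and 3 below. KRT8, a keratin of simple epithelia chosen after its values were seen, was at 892 to 1244 and 2407 to 2477 CPM. In bulk RNA, more cells of a kind and more RNA per cell cannot be told apart. Of the markers of other cell types, 2 of 8 for fibroblasts, 1 of 8 for blood, 3 of 7 for endothelium and 4 of 8 for neurons passed. The blood marker, LYZ, was at 0 to 0.184 CPM outside AGO1/2 and 1.59 to 3.66 CPM in it. LYZ passed the filter on low counts only through the AGO1/2 libraries, so its place among the tested markers follows from its level there. The neuron sum, 121 to 211 CPM over all libraries, overlapped between AGO1/2 and the others, but against wild type 3 of the 4, SNAP25, SYT1 and MAP2, were lower in AGO1/2 and TUBB3 was higher. These 4 genes and CDH1 were named after their values were seen.

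Genes of the interferon and RNA sensing response lay above 0 in 8 of 24 and below in 0 (median 0.50, positive in every alternative). IFI6, a protein induced by interferon, was at 1.49 to 5.87 CPM outside and 9.19 to 13.6 CPM in AGO1/2 (1.80 ± 0.38). Cholesterol synthesis genes were mostly higher than in wild type in every knockout line, with few interactions. All 3 comparisons share the wild-type libraries, and what these contribute cannot be told apart here. All 24 tested members were higher in AGO1/2 than in wild type (32.2% of all genes were), 19 of them in AGO1 (12.6%) and 20 in AGO2 (18.6%). Only 3 had an interaction above 0 and 2 below, with a median of 0.06 that turned to -0.02 at its lowest without 1 library. The median changes were 0.64 in AGO1, 0.66 in AGO2 and 1.28 in AGO1/2. SQLE, squalene epoxidase, was at 46.6 to 53.1 CPM in wild type, 56.2 to 61.4 in AGO1, 83.6 to 88 in AGO2 and 59.4 to 79.3 in AGO1/2 (-0.56 ± 0.13), a call lost on unscaled TPM (-0.12).

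In mitosis and replication, 2 of 30 genes lay above and 8 below (median -0.06, 0.35 on unscaled TPM and 0.09 without wild-type passage 29). Of those called, 7 were short of additive, the kind that a wild-type offset also gives. Against wild type, 23 of the 30 were higher and 1 lower in AGO1/2 (32.2% and 35% of all genes were). The replicative helicase led the lower side: MCM5 was at 147 to 193 CPM in wild type, 258 to 274 in AGO1, 258 to 272 in AGO2 and 225 to 249 in AGO1/2 (-0.78 ± 0.12), and MCM7 had -0.63 ± 0.11. Every knockout library was above wild type for MCM5, and neither call held on unscaled TPM. Other lists moved with wild-type passage 29. The integrated stress response had 6 of 23 above and 1 below with it and 6 and 5 without it (median 0.50 and -0.12), AP-1 and immediate early genes 9 of 26 and 2 with it and 9 and 10 without it (0.26 and -0.01), and cytosolic ribosomal proteins 0 of 25 and 4 with it and 0 and 16 without it (-0.19 and -0.26, but 0.31 on unscaled TPM). DNAJB9, a chaperone cofactor of the endoplasmic reticulum, was double-only, at 9.40 to 11.4 CPM outside AGO1/2 and 19 to 22.9 in it (0.96 ± 0.14). FOSL1, an AP-1 subunit, was at 50.9 to 75.4 CPM outside and 166 to 252 in AGO1/2 (1.62 ± 0.21). RPL8, on chromosome 8, was at 728 to 765 CPM in wild type, 878 to 1073 in the single lines and 733 to 838 in AGO1/2 (-0.71 ± 0.08), a call lost on unscaled TPM (-0.20).

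The remaining lists were near the shares of all genes or rested on few members. Hypoxia and glycolysis had 6 of 26 above and 3 below (median 0.01, with either sign in the alternatives); SLC2A1, the glucose transporter GLUT1, was at 221 to 306 CPM in wild type, 161 to 179 in AGO1, 118 to 139 in AGO2 and 495 to 637 in AGO1/2 (2.78 ± 0.17), and ENO2, an enolase, had 1.93 ± 0.11. Collagen chains had 7 of 17 above and 3 below (median 0.59, but -0.08 over the 14 with a mean count of at least 50); COL13A1 was at 4.75 to 13.3 CPM outside AGO1/2 and 128 to 145 in it (3.10 ± 0.25). DNA methylation genes had 3 of 14 above and 2 below (median -0.17, 0.26 on unscaled TPM), with TET1 at 0.65 ± 0.14 and DNMT3A at 0.41 ± 0.11. The DNMT3A call was lost on counts scaled by transcript length (0.23) and on TPM rescaled by TMM (0.21). Mitochondrially encoded genes had 0 of 13 above and 3 below (median -0.34, 0.07 on unscaled TPM); the calls for MT-ND1 (adjusted p = 0.04) and MT-ND2 (adjusted p = 0.032) were lost when single libraries were left out.

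**Figure D4:**
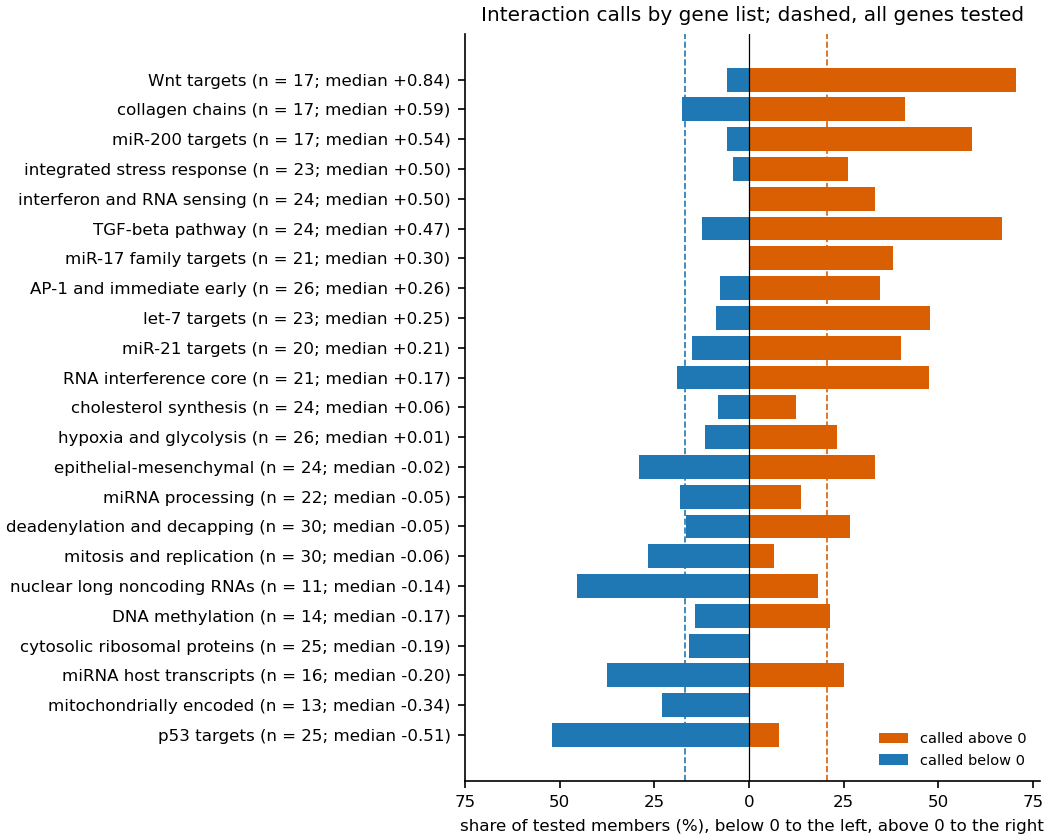
Bars give the share (%) of the tested members of each list with an interaction above 0 (right) and below 0 (left), with the number tested and the median interaction beside the name; dashed lines mark 20.6% and 16.9% for all genes tested. Wnt, TGF-beta and miR-200 lists extend furthest to the right and p53 targets furthest to the left; on unscaled TPM the medians of the miRNA processing, deadenylation, host transcript, epithelial-mesenchymal, mitosis, DNA methylation, long noncoding, ribosomal and mitochondrial lists turned positive.

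Among noncoding RNAs, the small nucleolar class lay mostly below additivity. Of 124 small nucleolar RNAs (snoRNAs), which guide modification of ribosomal RNA, 84 (67.7%) lay below 0 and 0 above, with a median of -1.43 (-0.91 on unscaled TPM). Their median changes were 0.13 in AGO1, 0.04 in AGO2 and -1.16 in AGO1/2. SNORD13, chosen with MALAT1 after its values were seen, was at 59.9, 64.8 and 73.3 CPM in wild type, 58.0, 61 and 72.7 in AGO1, 81.8, 87.2 and 85.6 in AGO2, and 21.7, 18.6 and 24.5 in AGO1/2. AGO1 overlapped wild type and AGO1/2 lay below all (-1.93 ± 0.15, adjusted p = 2e-06). Of 42 small nuclear RNAs 18 lay below; copies of both kinds of RNA are nearly identical or lie within introns, so the reads of single copies are uncertain. Of 3089 long noncoding RNAs 19.5% lay below 0, near the 16.9% of all genes, and 5.37% above, against 20.6% of all genes (median -0.28, 0.08 on unscaled TPM). In a list of 11 nuclear long noncoding RNAs, 5 lay below and 2 above (median -0.14, 0.08 on unscaled TPM), and their summed level was 16961 to 21536 CPM in AGO1/2 against 35666 to 50501 CPM elsewhere. Most of that sum was 1 member, RMRP, annotated as a ribozyme and named after its values were seen. Its mean was 22849 CPM in wild type, 32720 in AGO1, 24652 in AGO2 and 10760 in AGO1/2. TERC, the RNA template of telomerase, was at 67.2, 78.4 and 96.5 CPM in wild type, 86.2, 110 and 129 in AGO1, 121, 120 and 132 in AGO2, and 48.6, 47.7 and 53.6 in AGO1/2. AGO1/2 was below every other library (-1.74 ± 0.20). MALAT1 had changes of -0.54 in AGO1, -0.50 in AGO2 and -1.19 in AGO1/2, with no called interaction (-0.14 ± 0.18, adjusted p = 0.57).

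Position in the genome set chromosome 8 apart. Of its 640 tested genes, 36.3% had an interaction below 0, against 11.3% to 21.3% on the other autosomes and X, and its median was -0.32. The low values began at about 80 Mb (hg38): of the 319 genes from there to the end of the long arm, 194 (60.8%) lay below 0 and 13 above, with a median of -0.69 (-0.37 on TPM rescaled by TMM and -0.10 on unscaled TPM). Between 20 and 40 Mb the median was 0.26, with 36.9% above. In the last window, from 140 Mb, the median changes were 0.10 in AGO1, 0.23 in AGO2 and -0.61 in AGO1/2. ZNF704, MAL2, MYC, RPL8, SQLE and PVT1, a long noncoding RNA beside MYC at 46.3 to 53.7 CPM in wild type and 14.1 to 18.3 CPM in AGO1/2 (-1.26 ± 0.14), all lie in that stretch and had interactions below 0, as most of its genes did. AGO2 lies there too, with an interaction above 0 (0.45). Of the calls of the same fit, with no refit, 6614 lay outside chromosome 8, 3715 above and 2899 below 0.

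**Figure D5:**
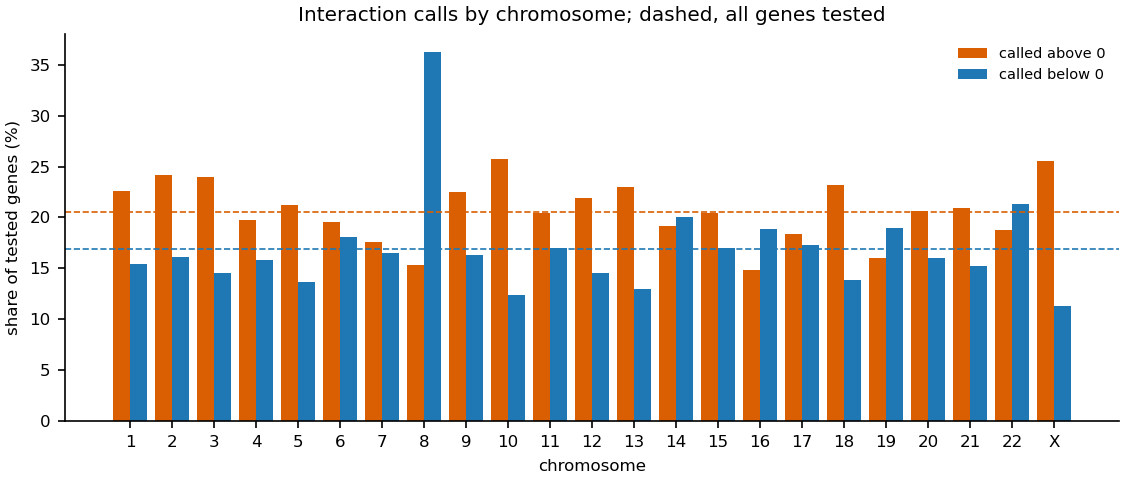
For each chromosome (x axis) the bars give the share (%) of its tested genes with an interaction above 0 and below 0, and dashed lines give the shares over all genes, 20.6% and 16.9%. Chromosome 8 stands out with 36.3% below 0; on unscaled TPM 10.8% of its genes lay below 0 and 25.9% above.

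The cytoplasmic libraries of the same 4 genotypes gave an interaction of their own. The nuclear minus the cytoplasmic value, tested in 1 fit over 24 libraries, was called for 250 of 19880 genes (1.26%), 44 above and 206 below 0, and 155 of them had a called nuclear interaction. Neither the count nor the split was stable: DESeq2 called 731, 332 above and 399 below, and TPM rescaled by TMM 484, 191 and 293. With genotype and passage as a block, 1839 genes were called, 747 above and 1092 below. The labels give passage numbers but do not state that both fractions of a passage came from 1 culture. LMAN1 was low in AGO1/2 in both fractions, with a nuclear interaction of -2.90 and a cytoplasmic one of -4.49, where its level was 145 to 154 CPM in wild type and 6.77 to 7.95 CPM in AGO1/2 (difference 1.47 ± 0.13, adjusted p = 7.3e-06). RECQL had -2.50 and -4.11, with 2.09 to 2.47 CPM in cytoplasmic AGO1/2 against 38.4 to 47.4 CPM in the other cytoplasmic libraries (1.49 ± 0.16). DLD, a dehydrogenase subunit, was at 103 to 131 CPM in all nuclear libraries, but in the cytoplasm at 72.8 to 79.8 CPM in AGO1/2 against 110 to 148 CPM elsewhere (0.86 ± 0.12). On the other side, MAP4K5, a kinase, was at 58.2 to 77.3 CPM in all nuclear libraries but at 9.88 to 11.1 CPM in cytoplasmic AGO1 against 25.2 to 31.6 CPM in cytoplasmic wild type, 44.8 to 49.0 in AGO2 and 51.7 to 56.2 in AGO1/2 (-1.43 ± 0.14). FKBP10, a collagen chaperone (-1.97 ± 0.21), and SLC23A2, a vitamin C transporter (-1.31 ± 0.15), were likewise low in the cytoplasm of 1 single knockout, AGO1 for FKBP10 at 3.97 to 4.75 CPM and AGO2 for SLC23A2 at 6.57 to 7.29 CPM. ATL3 and PXDN had cytoplasmic interactions of 1.48 and 3.11.

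In nuclei of the AGO1/2/3 knockout line, which was outside the interaction and was not tested against it here, levels of those genes were 259, 272 and 301 CPM for ATL3, 8.16, 8.29 and 7.99 CPM for RECQL, 56.7, 55.8 and 50.3 CPM for PXDN and 25.6, 26.9 and 23.3 CPM for LMAN1.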

How the data were processed

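RNA of the nuclear fraction was sequenced after removal of ribosomal RNA, on stranded paired-end libraries. The authors aligned and quantified reads with STAR and Salmon against hg38; the deposited values are estimated counts and TPM per transcript. The versions named differ between the paper and the submitters' processing notes. Estimated counts were summed per gene with GENCODE 44 (97.75% of transcripts matched; 3.12% to 4.01% of reads lay on the others) and rounded. Genes passing edgeR's filterByExpr at a minimum count of 10 were scaled by TMM and fitted with edgeR 4.0.16 quasi-likelihood over the 12 libraries; p-values were adjusted by Benjamini-Hochberg over all genes, at a threshold of 0.05. The fit was tested on simulated data: 121 of 200 changed genes were recovered for the interaction, and 76 of 200 for its difference between fractions. Deposited TPM were used for alternatives with limma 3.58.1, on log2(TPM + 1) and log2(TPM + 0.1).

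A called gene was double-only when AGO1/2 and neither single knockout differed from wild type, graded when AGO1/2 was beyond the sum on the same side of wild type, opposed when on the other side, and short otherwise. Named genes were the AGO genes, those of lowest p per class and direction with a mean of at least 5 CPM and a change of at least 1 in log2, leading members of each list, and leading genes of the fraction comparison. Members and lists were chosen with earlier results of these data known. The 8 crosslinking libraries were not used here. Some genes that the rule names are not reported here.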

Additional observations from a re-analysis of the deposited data

Results flagged for a closer look

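The interaction differed between nucleus and cytoplasm for 250 genes, by the interaction term of edgeR's quasi-likelihood test over both fractions. On the log2 scale, nuclear minus cytoplasmic, the leading differences were 1.47 for LMAN1, 1.49 for RECQL and 0.86 for DLD on one side. On the other they were -1.43 for MAP4K5, -1.97 for FKBP10 and -1.31 for SLC23A2. The cytoplasmic libraries came from the same lines as the nuclear ones, so line, passage and genotype cannot be told apart in either fraction.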

How the results depend on the processing

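The interaction was called for 6944 genes, and for 5633 to 7368 under the other tools, scalings and filters run, and it was at least 1 in size on the log2 scale for 2262. Leaving out 1 library at a time gave 6000 to 7620 calls, 2019 to 2507 double-only, 984 to 1715 graded, 1557 to 1921 opposed and 1056 to 1604 short of additive genes, 4331 to 5749 genes beyond both single knockouts, and 3478 to 5465, 5625 to 7553 and 11525 to 12766 changed genes in AGO1, AGO2 and AGO1/2. On unscaled TPM the graded genes numbered 412 with a pseudocount of 1 and 444 with 0.1, and the short genes 2150 and 2053; that scale shifts the median of all genes, as given above. The difference between fractions moved most. It was called for 731 genes by DESeq2 (45.4% above 0, against 17.6%), 144 with no filter (39.6%), 402 at a mean count of at least 50, 126 on counts thinned to the shallowest library, 4457 on unscaled TPM (96.9%), 484 on TPM rescaled by TMM (39.5%), and 109 to 463 with 1 library left out. The 463 came without wild-type passage 29, and calls fell to 159 and 113 without AGO1 passages 7 and 8, 158 and 109 without AGO2 passages 8 and 10, and 132 without AGO1/2 passage 9. With genotype and passage as a block it was called for 1839 genes (747 above and 1092 below 0). Deviations from the group means in the 2 fractions of a passage correlated at -0.0261 to 0.404. For all but AGO1/2 passage 9 this correlation was above the mean correlation with the other passages of the group. Deviations within a group sum to 0, so that comparison adds little to the sign of the correlation. No paired analysis was possible because wild-type passages match none of the knockout lines, for the nuclear interaction. The interaction of AGO2 reversed to -0.0008 on TPM rescaled by TMM, and that of FKBP10 to -0.0612 on counts scaled by transcript length and -0.0591 on TPM rescaled by TMM; the cause was not tested. For 60 of the 78 named genes the call and direction held in every alternative. Small interactions were often missed: in data simulated at these depths and replicate numbers, 26% of 1.5-fold and 88% of 4-fold interactions were called.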
